A study of Mus musculus with 2 samples.

Results

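The insulin-like growth factor (IGF) axis was followed in bone marrow derived macrophages through 9 genes, taken by symbol from 19871 genes with a row of their own on the array. They were the ligand gene Igf1, the receptor genes Igf1r and Igf2r, and the binding protein genes Igfbp2, Igfbp3, Igfbp4, Igfbp5, Igfbp6 and Igfbp7. Each had 1 row with 1 annotated symbol, so no choice between rows was needed. The series compares macrophages labelled beta-catenin deficient, 1 sample, with control macrophages, 1 sample. Both were grown from the marrow of mice aged 8 weeks with conditioned medium of L929, a mouse fibroblast line that releases the macrophage growth factor M-CSF, and total RNA of each was hybridised to 1 whole-transcript array. The sources used here give no mouse strain, allele, Cre driver or number of animals behind a culture. The values are the authors' RMA values on a log2 scale, so a difference of 1 is a 2-fold difference in signal.

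With 1 array in each group there is no spread between replicates. No p-value or error can be given, and every "higher" or "lower" below describes these 2 arrays. Genes were counted when they differed by at least 1.5-fold and the higher of both values reached a floor, set at 7.28, which is the midpoint of the table's values by rank (their median). Ctnnb1, which encodes beta-catenin, read 11.4 in the array labelled deficient and 11.3 in control. It was not lower (difference 0.15). Probes outside a deleted part would not show a deletion, but the sources used here do not give that part. Why Ctnnb1 was not lower was not tested. Because Ctnnb1 was not lower, the text speaks of the array labelled deficient, and every direction depends on that label being right. Axin2, a feedback gene that beta-catenin switches on, read 5.97 in the array labelled deficient and 7.61 in control. The difference of -1.64 is in the direction the label would give (chosen after its value was seen). The lower value lay below the floor and the control value only just above it, so the size of this difference rests on a dim value. Across all genes at or above the floor the median difference was -0.08, with 7.54% called higher and 8.81% called lower by this rule. These shares are the background for each count of genes at the floor below.

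IGF1 is a secreted growth and survival factor, and macrophages are one of its sources outside the liver, known for this in tissue repair. It signals through the receptor tyrosine kinase IGF1R, while IGF2R binds IGF2 and carries it, with mannose 6-phosphate tagged enzymes, to the lysosome without signalling as a kinase. The binding proteins hold IGFs in the extracellular space, prolong their life, keep them from or hand them to the receptor, and are released from IGFs by proteases. Fibroblasts, smooth muscle and endothelium make much of the binding protein in tissues.

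The promoters of the members most apart between the arrays, Igfbp7 and Igfbp3, and of the ligand gene Igf1 are printed here because beta-catenin acts on DNA through TCF/LEF factors. They are the 250 bases before the annotated start, from RefSeq, build GRCm38.p6. Igfbp7 lies on the minus strand at chr5:77408046-77408295, Igfbp3 on the minus strand at chr11:7213924-7214173 and Igf1 on the plus strand at chr10:87860861-87861110. Capitals mark exact matches on either strand to the TCF/LEF core TCAAAG, the GC box GGGCGG or the TATA box TATAAA, none of which overlap one another in these windows.
Igfbp7: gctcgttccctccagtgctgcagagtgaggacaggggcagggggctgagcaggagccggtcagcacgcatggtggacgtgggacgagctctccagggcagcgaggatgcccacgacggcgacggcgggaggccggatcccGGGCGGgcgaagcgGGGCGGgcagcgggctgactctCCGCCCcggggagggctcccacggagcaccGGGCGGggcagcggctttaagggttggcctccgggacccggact
Igfbp3: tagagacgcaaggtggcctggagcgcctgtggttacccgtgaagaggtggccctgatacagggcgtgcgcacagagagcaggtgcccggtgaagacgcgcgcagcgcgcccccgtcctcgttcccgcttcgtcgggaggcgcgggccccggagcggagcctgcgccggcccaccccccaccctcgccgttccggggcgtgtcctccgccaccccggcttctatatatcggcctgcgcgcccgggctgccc
Igf1: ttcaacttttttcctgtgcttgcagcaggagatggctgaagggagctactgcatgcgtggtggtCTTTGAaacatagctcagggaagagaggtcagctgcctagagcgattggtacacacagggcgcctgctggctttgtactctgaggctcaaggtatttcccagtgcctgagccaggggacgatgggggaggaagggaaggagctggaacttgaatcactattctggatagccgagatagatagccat

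In the Igfbp7 window the capitals are 4 GC boxes, in that of Igf1 they are 1 TCF/LEF core on the minus strand, at 186 to 181 bases before the start, and the Igfbp3 window holds none of the 3 motifs. Of 10 such windows for the 9 genes (Igfbp2 has 2), 2 held the TCF/LEF core, those of Igf1 and Igf1r (89 to 84 bases before the start), and 0 of the 7 windows of binding protein genes did. Among all 32851 promoters in the table, 13.8% held that core, 32.7% a GC box and 12.4% a TATA box. The members' windows were rich in G and C. They ranged from 49.6% (Igfbp6) to 77.6% (Igf1r), and 9 of 10 lay above the median of 52.4% over all promoters. A match is a run of letters, and its absence from 250 bases says nothing of more distant sites.

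The binding protein genes held the only members at least 1.5-fold apart. In the array labelled deficient, Igfbp7 was 2.97-fold and Igfbp3 2.66-fold higher than in control. Igf1 and both receptors lay within 1.5-fold. Between the same arrays, fibroblast and stromal markers had a median difference of 0.99 and neutrophil markers one of 1.30. The part of either in the members' values was not tested. Of the 9 members, 7 reached the floor, and of these 2 passed 1.5-fold upward, 0 passed it downward and 5 lay in between. With 7.54% of all genes at the floor called higher, and 7 members, the count is small and is given as a description. The median over the 7 was 0.25, beside -0.08 over all genes at the floor. Without a floor the same 2 members were called higher and 0 lower, where 4.98% of all genes were called higher and 13.0% lower. In all, 7 of the 9 differences were positive and the 2 negative ones were those of Igf2r and Igfbp4.

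**Figure D1:**
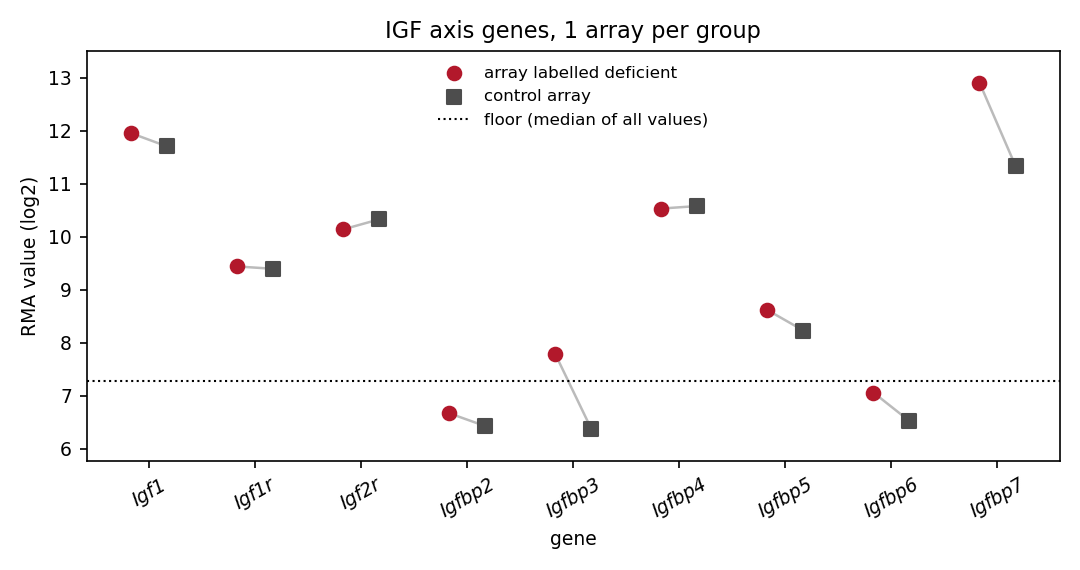
RMA value on a log2 scale (vertical axis) for each of the 9 genes, with the array labelled deficient as a circle on the left and the control array as a square on the right, joined by a line. The dotted line is the floor of 7.28. Igfbp7 and Igfbp3 have the steepest lines, and Igfbp2 and Igfbp6 lie below the floor in both arrays.

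The ligand and its receptors were close in both arrays. Igf1, the secreted ligand, read 11.95 in the array labelled deficient and 11.7 in control, a difference of 0.25 or 1.19-fold. A difference at least as large and positive was seen in 20.4% of genes at the floor. Igf1r, the receptor tyrosine kinase that carries the IGF signal, read 9.44 in the array labelled deficient and 9.40 in control, 0.04 apart. Igf2r, the clearance receptor that also sorts lysosomal enzymes, read 10.1 in the array labelled deficient and 10.3 in control. Its difference of -0.19 was the lowest of the members, and 37.8% of genes at the floor lay at least as far below 0. None of the 3 stood out from the bulk of genes in either direction.

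Igfbp7, also known as Mac25, encodes a secreted binding protein with weak affinity for IGFs that is abundant in vessel walls and stroma and is also known to bind the IGF1 receptor. It read 12.9 in the array labelled deficient and 11.3 in control, a difference of 1.57 or 2.97-fold. Of the 10658 genes at the floor, 105 (0.985%) differed by at least this much in the same direction. Both values were far above the floor, so neither lay in the dim range of the array. The 178 genes whose mean level was within 0.25 of that of Igfbp7 had a median difference of 0.00.

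Igfbp3 encodes the main IGF carrier of blood, which forms a complex with IGF and the acid-labile subunit. It read 7.79 in the array labelled deficient and 6.38 in control, a difference of 1.41 or 2.66-fold, and 132 genes (1.24%) differed by at least as much in that direction. The control value was 0.90 below the floor and the other 0.51 above it. Igfbp3 thus entered the count through the array where it was high, and the size of its difference depends on a dim control value. Genes of like mean level, 1646 within 0.25, had a median difference of -0.09.

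The other binding proteins differed less. Igfbp5, which binds matrix and is made by fibroblasts, muscle and bone cells, read 8.62 in the array labelled deficient and 8.23 in control, 0.39 apart. Igfbp6, which prefers IGF2 over IGF1, read 7.06 in the array labelled deficient and 6.52 in control. Its difference of 0.54 (1.45-fold) lay just inside 1.5-fold, and both values were below the floor, as were those of Igfbp2. Igfbp2, a binding protein of fetal tissues, liver and nervous system, read 6.67 in the array labelled deficient and 6.43 in control, 0.24 apart. For Igfbp2 and Igfbp6 the array gives little to tell a low level from background. Igfbp4, a mainly inhibitory binding protein that the protease PAPP-A cuts, read 10.5 in the array labelled deficient and 10.6 in control, a difference of -0.05. The 6 binding proteins thus spanned from -0.05 to 1.57.

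**Figure D2:**
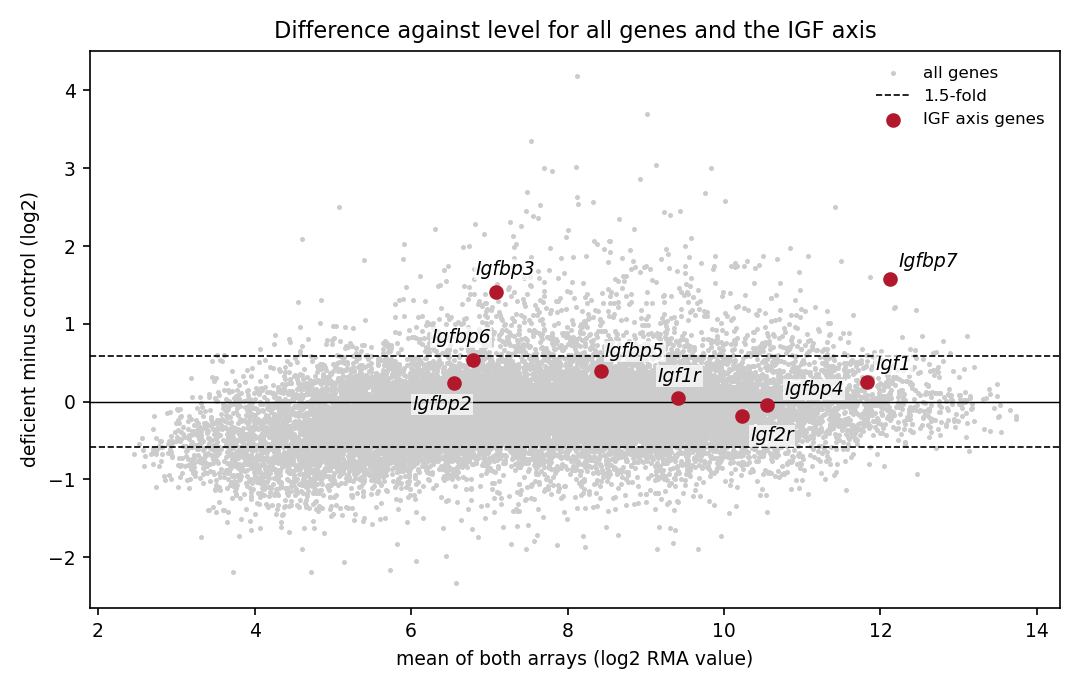
Difference between the array labelled deficient and control (vertical axis, log2) against the mean of both arrays (horizontal axis, log2 RMA value) for all genes in grey and the 9 IGF axis genes in red, with dashed lines at 1.5-fold. Igfbp7 lies at the bright end, 1.57 above 0, and Igfbp3 at a mean level near the floor, 1.41 above 0. The other 7 lie between the dashed lines.

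Some binding protein genes sit in pairs or near tensin genes, which encode focal adhesion proteins. In the RefSeq order of protein-coding genes of GRCm38.p6, Igfbp2 is next to Igfbp5 and Igfbp3 next to Igfbp1. Igfbp3, Igfbp4, Igfbp5 and Igfbp6 each have a tensin gene among the 2 nearest genes on either side, while Igfbp7 has neither a tensin nor another binding protein gene there. Igfbp1, the neighbour of Igfbp3, read 6.18 in the array labelled deficient and 5.71 in control. It was 0.47 apart, with both values below the floor. Tns3, on the other side of Igfbp3, differed by -0.02, Tns4 beside Igfbp4 by -0.19, Tns1 near Igfbp5 by -0.32 and Tns2 near Igfbp6 by 0.36. Both values of Tns4 lay below the floor. Over the 28 measured neighbours of all members, 0 were 1.5-fold or more higher and 4 were 1.5-fold or more lower (no floor used). Many of the neighbours were below the floor in both arrays, Mrgprh and Tnp1 of the lower ones included. Over all genes without a floor, 4.98% were called higher and 13.0% lower. The neighbours' differences ran from -0.87 (Top2a) to 0.47 (Igfbp1). Adcy1 and Pkd1l1 near Igfbp3, and Adgrl3 and Tecrl near Igfbp7, were also below the floor in both arrays. No measured neighbour of Igfbp3 or Igfbp7 had as large a positive difference, and with so few neighbours the counts are given as a description.

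Genes whose proteins share the N-terminal IGF-binding domain, or belong to the same system, were mostly higher where they were bright enough to count, with 6 of 8 differences positive. Of 17 listed, 16 had a row and 8 reached the floor, of which 5 passed 1.5-fold upward and 0 downward. Their median difference was 1.14. Esm1, the proteoglycan endocan of endothelium, read 8.36 in the array labelled deficient and 6.34 in control, and its control value lay below the floor. The matricellular gene Ccn1 was 11.6 in the array labelled deficient and 9.76 in control, and Ccn2, its relative known as connective tissue growth factor, was 12.8 in the array labelled deficient and 11.6 in control. Ccn1, Ccn2 and Ccn5 (1.08) belong to a family of matrix-associated proteins with an IGF-binding module. Htra1, a secreted serine protease with such a module, was 1.35 higher, its relatives Htra4 0.37 and Htra3 -0.08 apart, and Ccn4 -0.15 apart. The other 8, Igfbp1 included, were below the floor in both arrays. Among them the second ligand gene Igf2 read 6.88 in the array labelled deficient and 7.14 in control, the insulin gene Ins2 differed by -0.14, the acid-labile subunit Igfals by -0.12 and Igfbpl1 by -0.18. Kazald1 differed by 0.37, Ccn3 by -0.19 and Ccn6 by -0.37. Without a floor the median of the 16 was 0.15, lower than over the 8 brighter genes. Stromal markers were higher in the same array (median 0.99), and their part in these values was not tested.

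Of genes that release or preserve IGFs in the extracellular space, 12 of 15 at the floor had positive differences, but the 2 IGFBP proteases of the pappalysin family were not higher. Pappa, which encodes PAPP-A, read 8.19 in the array labelled deficient and 8.66 in control, a difference of -0.47, and Pappa2 differed by -0.13 below the floor in its brightest row, while its other rows differed by 0.20 and -0.21. The stanniocalcins, which inhibit these proteases, were higher. Stc1 read 8.53 in the array labelled deficient and 6.27 in control, a difference of 2.26, and Stc2 read 7.59 in the array labelled deficient and 6.70 in control, a difference of 0.89. Both control values lay below the floor. In all, 15 of 24 genes of proteases and inhibitors reached the floor, and 8 of these passed 1.5-fold upward and 0 downward. The median was 0.63 at the floor and 0.17 without one. The highest were Serping1, the inhibitor of the C1 proteases (3.04), Stc1 and Htra1. Htra1 is also in the list of relatives above and counts in both. Serping1, Htra1, Timp1 and Mmp2 are also made by stromal cells, and Mmp2 (0.93) is itself 1 of the stromal markers (median 0.99). The part of stromal RNA in these differences was not tested. The lowest were Pappa, the urokinase gene Plau (-0.06) and the metalloprotease gene Adam12 (-0.03).

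Upstream of Igf1, the growth hormone receptor gene stood out. Ghr read 8.89 in the array labelled deficient and 7.62 in control, a difference of 1.27, and its feedback inhibitor Socs2 read 8.47 in the array labelled deficient and 7.88 in control, a difference of 0.59. These were the 2 genes of 12 at the floor that were at least 1.5-fold higher, with 0 lower and a list median of 0.22. Socs2 lay just past 1.5-fold, and its second, dimmer row differed by -0.27, so its rows disagree. The count was 1 when all rows of a gene were averaged and 0 with the floor at the 75th percentile. The part of stromal RNA (marker median 0.99) in the difference of Ghr was not tested. The transcription factors that carry the growth hormone signal to Igf1 differed little, Stat5a by 0.17 and Stat5b by 0.27. Igf2bp3, which binds IGF2 mRNA, was 0.35 apart. At the low end were Stat6, the factor of interleukin-4 signalling (-0.19), the kinase gene Jak2 (-0.11) and Cebpb (0.01). Igf1 itself, at 0.25, lay near the median of this list.

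Downstream of the receptors most genes lay within 1.5-fold. Of 34 listed genes of shared insulin and IGF signalling, 29 had a row and reached the floor. Of these, 1 passed 1.5-fold upward, 1 downward and 27 neither, and the median was -0.11. Over all genes at the floor, 7.54% were called higher and 8.81% lower. The adaptor gene Irs1 was the high one, at 8.43 in the array labelled deficient and 6.84 in control, a difference of 1.59 with the control value below the floor. Its relative Irs2, also an adaptor of the insulin and IGF1 receptors, was 8.16 in the array labelled deficient and 8.65 in control, a difference of -0.49, so the 2 adaptor genes went opposite ways. For Irs1, too, the part of stromal RNA (marker median 0.99) was not tested. The insulin receptor gene Insr differed by 0.22 in its brighter row and by 0.11 in its second row. The adaptors Grb10 (0.45) and Grb14 (0.37) followed Irs1. The lowest were the transcription factor Foxo1 (-0.74), at 8.03 in the array labelled deficient and 8.77 in control, the mTOR partner Rptor (-0.57) and the translation repressor Eif4ebp1 (-0.55).

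Genes that respond to insulin or FOXO factors went both ways. Of 22 at the floor, 2 passed 1.5-fold upward, 1 downward and 19 neither, and the median was 0.13. Over all genes at the floor 7.54% were called higher and 8.81% lower, so these small counts are a description. The highest were the mitochondrial kinase Pdk4 (1.27), the ubiquitin ligase Fbxo32 (0.64) and the thioredoxin inhibitor Txnip (0.51), and the lowest were Gadd45a (-0.71), Bcl6 (-0.49) and Irs2. Genes of the mannose 6-phosphate route, in which IGF2R sorts lysosomal enzymes, lay near 0 as a list, as did Igf2r (-0.19). Of 15 at the floor, 1 was at least 1.5-fold higher, the protease Ctsl (0.63), and 1 lower, the sulfatase Arsb (-1.20), with a median of 0.03. Sort1 (0.28) and Gusb (0.25) came next at the high end, and Gnptab (-0.57), a subunit of the enzyme that adds the tag, and Nagpa (-0.39), which uncovers it, at the low end. The related receptor gene M6pr was not analysed here.

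**Figure D3:**
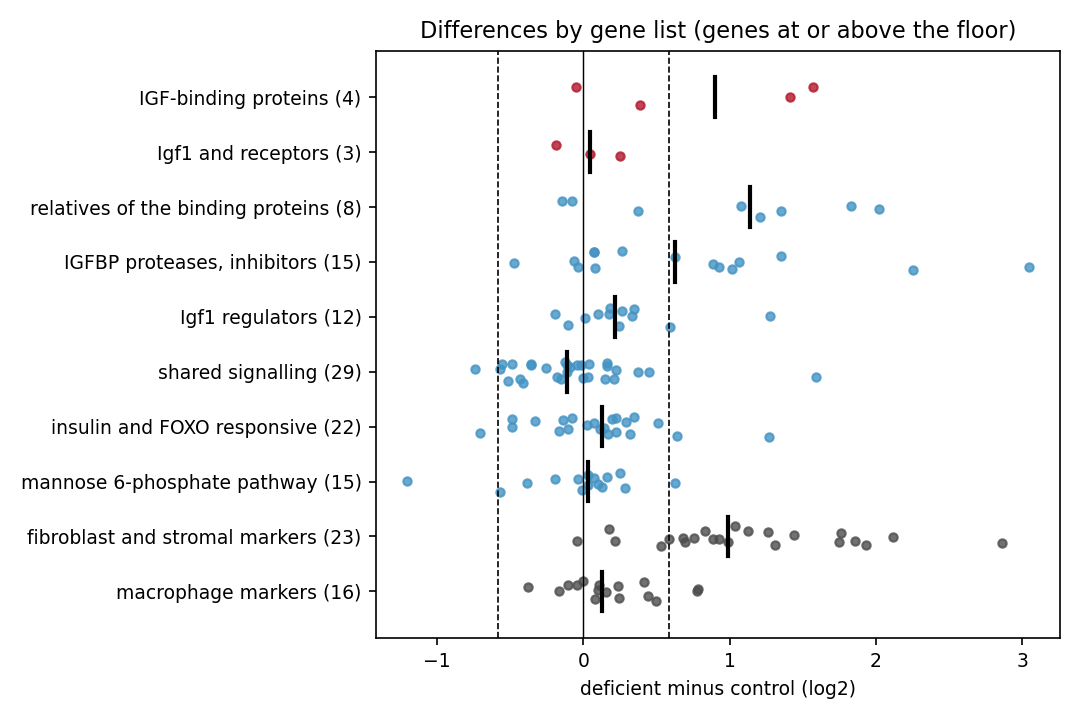
Difference between the array labelled deficient and control (horizontal axis, log2) for each gene at or above the floor, by list, with the number of genes in brackets, black bars at the medians and dashed lines at 1.5-fold. Red marks the members, blue the lists of the IGF system and grey the markers. The relatives of the binding proteins (median 1.14), the protease list (0.63) and the stromal markers (0.99) lie to the right. The macrophage markers (0.13) and shared signalling genes (-0.11) lie near 0. Some genes are in several lists. Htra1 is among the relatives and the proteases, and Mmp2 among the proteases and the stromal markers.

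Markers of other cell types moved in the same arrays. Macrophage markers were bright and close, with a median of 12.1 in both arrays, and a median difference of 0.13. Of 16 genes at the floor, Fcgr1 and C1qb (both 0.78) passed 1.5-fold upward and 0 passed it downward. The lowest were Lyz2 (-0.38) and Spi1 (-0.17). Fibroblast and stromal markers, from which the members were left out, were higher. Of 26, 23 reached the floor, and 19 of these passed 1.5-fold upward and 0 downward. The median difference was 0.99. Their levels ran from 7.31 to 13.5 in the array labelled deficient and from 6.92 to 13.6 in control. Differences were led by Cxcl12 (2.87) and Pdgfra (2.12), with Vim (-0.05) and Thy1 (0.18) lowest. The control values of Pdgfra (6.92) and Thy1 (7.13) lay below the floor. Lum, Twist1 and Tcf21 were below the floor in both arrays. Such cells make binding proteins and their relatives, among them Igfbp3, Igfbp7, Ccn1, Ccn2 and Htra1, and also Igfbp5, which differed by 0.39. Not all genes of these families were higher, as the binding protein gene Igfbp4 differed by -0.05 and Ccn4 by -0.15. The part of stromal RNA in all these differences was not tested. In bulk RNA, more cells of a type and more RNA per cell cannot be told apart.

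Endothelial markers, which bear on Igfbp7 and Esm1, had a median of 0.38 over 7 genes at the floor, with 1 at least 1.5-fold higher, Emcn (2.00), and 1 lower, Flt1 (-0.67). Vwf was 0.51 and Eng 0.26 apart. Pecam1, Cdh5 and Egfl7, also at the floor, differed by 0.38, 0.44 and 0.27. Emcn, Flt1 and Pecam1 reached the floor only in the array where each was higher. Kdr, Tek, Tie1, Cldn5 and Esam were below the floor in both arrays. Smooth muscle and pericyte markers had a median of 0.26 over 7 genes, with Tagln (0.79) and Acta2 (0.62) at least 1.5-fold higher and Cnn1 (-0.89) lower. Cspg4 differed by -0.58. Myh11, Des and Rgs5 were below the floor. Neutrophil markers were higher too, and 12 of 15 passed 1.5-fold upward and 0 downward (median 1.30). They ran from Retnlg (2.57) and Mpo (2.22) to Csf3r (-0.06) and Camp (-0.43). Retnlg, Prtn3, Ctsg and Ly6g reached the floor only in the array labelled deficient, with control values of 7.04, 7.21, 6.99 and 6.99. The part of endothelial, smooth muscle, pericyte and neutrophil RNA in the members' values was not tested. In the remaining lists few genes reached the floor. They were 7 of osteoclasts (median 0.86), 5 of mast cells and basophils (0.92), 4 of megakaryocytes and erythroid cells (1.06), 3 of adipocytes (0.85), 3 of dendritic cells (0.94), 3 of B cells (0.32), 2 of T and NK cells (0.62) and 1 of osteoblasts (Alpl, 1.57). These medians rest on the floor. Without it the osteoclast median was 0.58, the mast cell and basophil one 0.06, the megakaryocyte and erythroid one 0.46 and the adipocyte one 0.51. Those of dendritic cells (-0.29) and T and NK cells (-0.53) were then negative. The adipocyte genes at the floor were Lpl (0.85), Pparg (1.09) and Plin4 (0.22). Adipoq, Lep, Plin1, Cidec and Lepr were below it in both arrays. The dendritic cell genes at the floor were Itgax (1.53), Cd209a (0.94) and Ccr7 (-0.63). Flt3, Zbtb46, Xcr1, Clec9a, Siglech, Dpp4 and Batf3 were below it in both arrays.

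Rescaling moved small differences by unequal amounts, except centring, which moves all genes alike. The median difference of all 19871 genes was -0.15 as deposited and -0.00 after quantile normalization of both columns. Over the scalings tried, Igfbp7 ranged from 1.57 to 1.72 and Igfbp3 from 1.41 to 1.56, at least 1.5-fold higher in each. Igfbp4 ran from -0.05 to 0.10 and changed sign under centring and loess. Igfbp6 ran from 0.54 to 0.69 and was past 1.5-fold under centring, quantile normalization and loess, though still below the floor. Igf1 stayed between 0.22 and 0.40, Igfbp5 between 0.39 and 0.54, and Igf2r between -0.19 and -0.04.

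**Figure D4:**
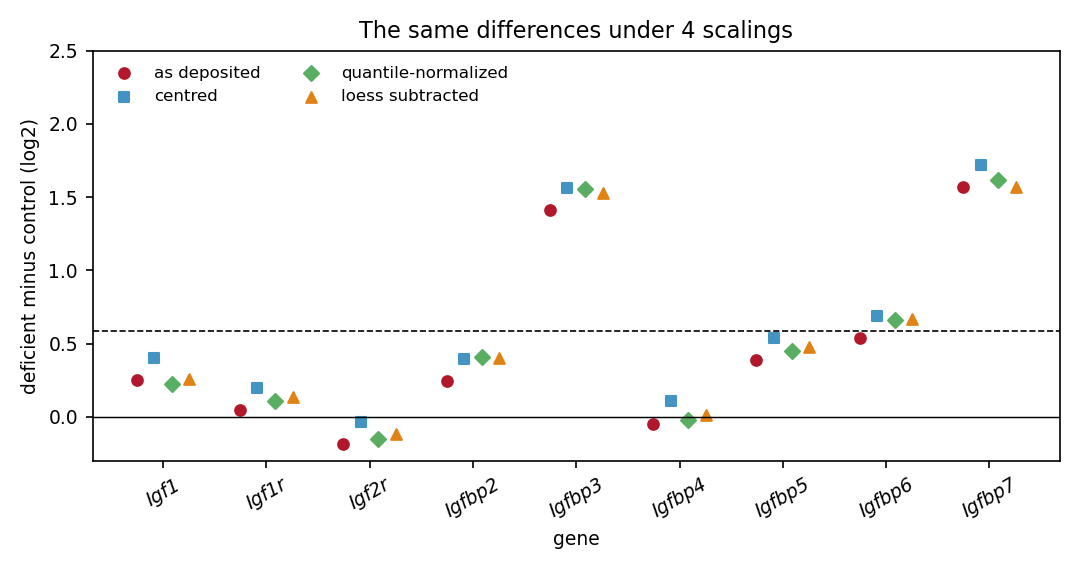
Difference between the array labelled deficient and control (vertical axis, log2) of each of the 9 genes under 4 scalings, shown by marker shape, with a dashed line at 1.5-fold. Igfbp3 and Igfbp7 lie above the line under all 4, Igfbp6 crosses it, and Igfbp4 crosses 0.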

How the data were processed

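Gene expression was measured on 2 whole-transcript arrays, 1 per group. The deposited values are log2 values per transcript cluster made by the authors with RMA, per the submitters' processing notes. The scale was read from their range, 2.12 to 14.1. RMA corrects background, quantile-normalizes probes and summarises them. The sources used here do not give its version, its settings, the row filter, whether both columns came from 1 run, or whether a column is 1 hybridisation or a mean of several. The columns are written with different numbers of digits, and each is called an array because it stands for 1 sample. RMA values carry no depth or detection call, and the number of arrays limits the precision.

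Of 25917 rows, 21632 had 1 gene symbol in GEO's platform annotation, 1560 several and 2725 none. Where a gene had several rows (947 of 19871 genes) the row with the highest mean was kept. Differences are the array labelled deficient minus control (Python 3.11.15, pandas 2.3.3, statsmodels 0.14.6 for loess with a span of 0.3). The floor of 7.28 left 10658 genes. The procedure was tested on simulated data in which differences were added only to genes with a mean level above the floor. Genes as dim as Igfbp3, Igfbp2 and Igfbp6 were thus not covered.

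The members, gene lists and floor were chosen with earlier results of these data known. Named were all members, the 3 highest and 3 lowest genes at the floor of each pathway list, all relatives, some fixed genes (Insr, Irs1, Irs2, Ghr, Stat5a, Stat5b, Socs2, Pappa, Pappa2, Stc1, Stc2, Ctnnb1), and the 2 highest and 2 lowest of the marker lists described. Neighbours, motifs, markers below the floor and the remaining endothelial markers were chosen after values were seen. With 1 difference per gene, no genes of like pattern were named. Alternatives were other floors, other scalings and the mean of all rows of a gene.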

Additional observations from a re-analysis of the deposited data

How the results depend on the processing

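No test was possible with 1 array per group, and no replicate could be left out. No paired analysis was possible because each group has 1 sample and the labels carry no replicate numbers. A value counted as moved when it crossed 1.5-fold, and a count when it changed by over 1.5 times. The median of the IGF axis members, 0.25 as reported, stayed positive and within 1.5-fold under all 6 alternatives but ran from 0.04 with the floor at the 75th percentile to 0.40 under centring, and 0 members were called lower under any. With the floor at the 75th percentile (9.07), 1 member in place of 2 was at least 1.5-fold higher, because Igfbp3 did not reach that floor. Under that floor the counts over all genes were 441 higher and 481 lower at 1.5-fold and 184 higher and 72 lower at 2-fold. It left 0 higher and 0 lower genes in shared signalling, 0 higher among Igf1 regulators, 1 higher and 0 lower among insulin and FOXO responsive genes, and 0 higher and 0 lower endothelial markers. Without a floor, 2590 genes were at least 1.5-fold and 465 at least 2-fold lower. The median of the relatives of the binding proteins was then 0.15, that of the protease list 0.17 with 1 gene lower, and those of dendritic (-0.29) and T and NK cell markers (-0.53) turned negative. Centring gave 1230 genes at least 1.5-fold higher, 481 lower and 99 at least 2-fold lower. It also gave 2 shared signalling genes higher, 0 insulin and FOXO responsive genes lower, 4 macrophage markers higher, and 3 endothelial markers higher and 0 lower. Quantile normalization left 0 endothelial markers lower, and loess left 2 higher and 0 lower. With the mean of all rows of a gene, 1 Igf1 regulator was higher. The cause of these moves was not tested beyond what each setting does by construction.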

Other observations

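Some further genes with IGF in their name were chosen after their values were seen. Igf1os, an RNA annotated on the strand opposite to Igf1, read 4.98 in the array labelled deficient and 4.99 in control, far below the floor, while Igf1 was bright in both arrays. The insulin receptor relative Insrr was below the floor at 6.35 in the array labelled deficient and 6.26 in control. Igf2bp1, an mRNA-binding protein of fetal tissues that is also in the list of Igf1 regulators, read 6.42 in the array labelled deficient and 6.72 in control, and its dimmer row went the other way (0.35). Igflr1, a receptor of the IGF-like family that is unrelated to IGF1R, read 7.58 in the array labelled deficient and 7.66 in control. Igfl3 differed by -0.03 and the muscle gene Igfn1 by -0.32, both below the floor.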
